A study of Homo sapiens with 6 samples.

Results

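The genes followed here settle what a cell does with pyruvate and lactate: the pyruvate kinase gene PKM, the lactate dehydrogenase genes LDHA and LDHB, the lactate carrier genes SLC16A1 and SLC16A3, the pyruvate dehydrogenase kinase genes PDK1, PDK2, PDK3 and PDK4, and the mitochondrial pyruvate carrier gene MPC1. The rule takes them by symbol and uses none of their values, though earlier results of these data were known when it was written. All 10 were found among the 57820 gene rows of each library. RNA was sequenced from U266, a cell line grown from a human multiple myeloma, a cancer of antibody-secreting plasma cells. The MYC group held 3 libraries of U266 cells transduced with a lentivirus that carries the MYC transcription factor gene behind EF1A, a promoter active in most cell types. The control group held 3 libraries of U266 cells labelled only as control. Whether the control cells received a virus without MYC is not given in the sources used here, so an effect of transduction and an effect of MYC cannot be told apart. All cells were grown in RPMI-1640 with serum and antibiotics, and the design asks how raised MYC alters the transcriptome. It is not given whether the MYC cells are a pool or a clone, or whether libraries came from separate cultures, so p-values measure only the spread between these libraries, which may be technical.

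Pyruvate, the end product of glycolysis, has several fates. Lactate dehydrogenase, a tetramer of LDHA and LDHB chains, interconverts it with lactate, and monocarboxylate carriers of the SLC16 family move lactate across the plasma membrane together with a proton. Alternatively, the MPC1 and MPC2 proteins carry pyruvate into mitochondria, where the pyruvate dehydrogenase complex turns it into acetyl-CoA, and the PDK kinases switch that complex off by phosphorylating it. LDHA is a long-known target gene of MYC, and cancer cells commonly make lactate even when oxygen is present.

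Summed expected counts, the read estimates per gene, ran from 27139978 to 158667309 in the MYC libraries and from 55026416 to 130576913 in the control libraries. MYC itself was at 105, 110 and 92.1 CPM (counts scaled to a common library size with TMM factors) in the MYC libraries, against 3.91, 4.16 and 4.51 CPM in the control libraries (log2 fold change 4.60, adjusted p = 9.71e-08, edgeR); reads of the vector and of the cells' own gene were counted together. The 9 plasma cell markers summed to 3864 to 4400 TPM (a unit corrected for transcript length and depth) in MYC libraries and 6880 to 7259 TPM in control libraries, and none was under 1 TPM in every library. Most of that difference lay in IGHE, named after its values were seen, at 1003, 800 and 500 TPM in MYC libraries. In control libraries IGHE was at 3106, 3372 and 3131 TPM. By edgeR at an adjusted p under 0.05, 2 of the 9 were higher (28.8% of all genes) and 6 lower (32.1%). Of the markers of other cell types, 2 of 5 T cell, 4 of 5 myeloid, 2 of 5 stromal and 3 of 5 epithelial markers stayed under 1 TPM in every library. These lists summed to 12.4 to 13.7 TPM in MYC against 6.03 to 8.01 TPM in control for T cells, 1.11 to 1.91 against 1.61 to 2.31 for myeloid cells, 3.83 to 4.40 against 4.21 to 4.74 for stroma and 7.59 to 8.69 against 4.02 to 4.78 for epithelium. The libraries also differed in how a gene's level relative to its mean over all libraries followed the GC content of its transcripts. This relative level was log2 CPM minus the gene's mean. Across 17202 genes, Spearman's rho was between -0.62 and -0.31 in MYC libraries and between 0.38 and 0.61 in control libraries. Centring sets libraries against each other, so where they differ rho takes both signs, and it does not describe absolute levels. Genes share their library here, so rho is a description. Genes with 40 to 44% GC had a median log2 fold change of 0.23, MYC over control. Those with 60 to 66% GC had one of -1.05. Values are therefore also given from a fit that takes out each library's GC trend, called the GC offset. Because the trend split by group, this offset also takes out any difference between the groups that goes with GC content. The source of the trend was not tested.

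In both groups PKM was the most abundant of the 10 transcripts per length, followed by LDHA and LDHB. Mean levels in the MYC libraries were 1848 TPM for PKM, 1075 TPM for LDHA, 541 TPM for LDHB, 57.9 TPM for SLC16A1 and 56.1 TPM for PDK2. There followed MPC1 at 32.8 TPM, PDK1 at 30.3 TPM, PDK3 at 3.94 TPM, SLC16A3 at 2.71 TPM and PDK4 at 0.020 TPM. The ranges of SLC16A1 and PDK2 overlapped in the MYC libraries, and all other neighbours in that order were apart. In the control libraries all neighbours were apart, and the order differed in 2 places: PDK2 (76.8 TPM) stood above SLC16A1 (37.3 TPM), and SLC16A3 (8.22 TPM) above PDK3 (2.46 TPM). In bulk RNA, fewer cells expressing a gene and less RNA per cell cannot be told apart.

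Of the 10 genes, 9 had enough counts to be tested, and 6 of these were higher in MYC cells, 2 were lower and PKM was not called. The threshold for a call was an adjusted p of 0.05 in edgeR's quasi-likelihood test, with Benjamini-Hochberg adjustment over all 17679 genes tested. Calls were common in these data: 28.8% of all genes tested were called higher and 32.1% lower, 60.8% in all. The CPM of the groups did not overlap for the same 8 genes, as for 32.1% of all genes upward and 35.1% downward. The median log2 fold change of MYC over control was 0.37 over the 9 genes and -0.02 over all genes. With the GC offset 5 were called higher and 0 lower, against 30.0% and 29.1% of all genes (59.1% in all). In that edgeR fit 6 higher and 2 lower had an unadjusted p under 0.05, for which no share of all genes is given. LDHA, LDHB, SLC16A1 and PDK3 were called higher in both fits.

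**Figure D1:**
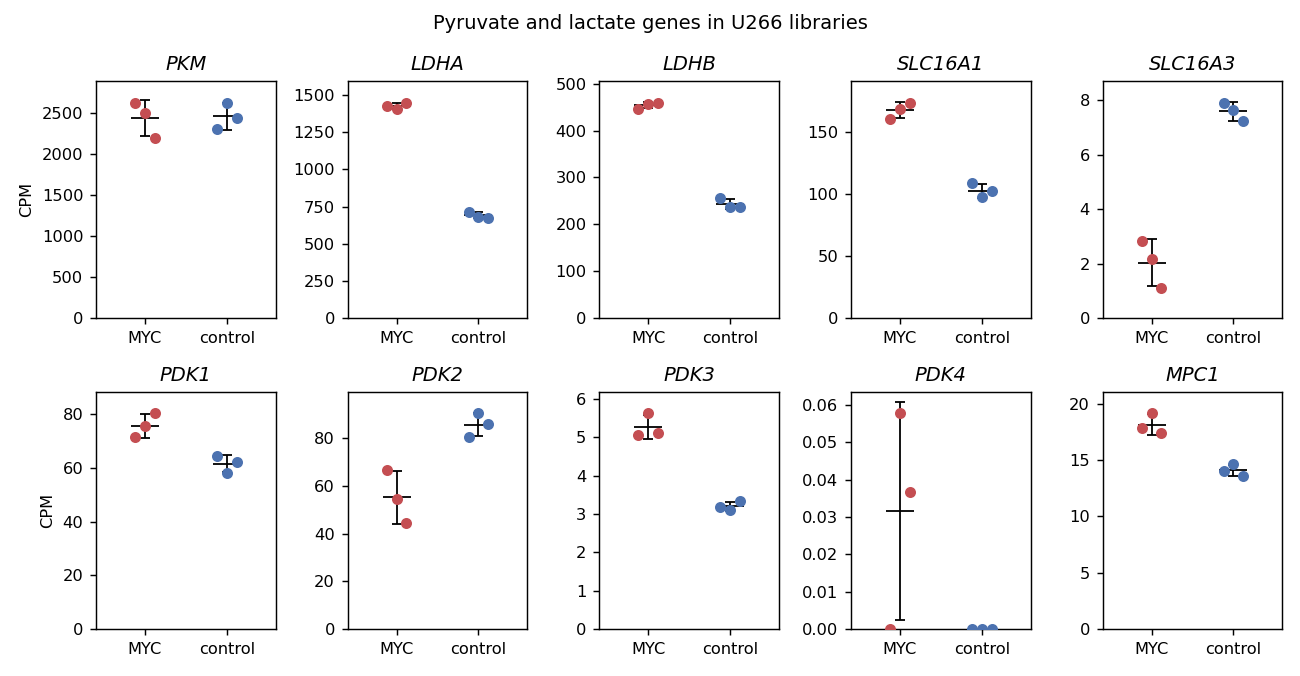
Level of each of the 10 genes in every library, in CPM on axes that start at 0, with MYC libraries at left and control libraries at right; the horizontal line is the group mean and the bar is 1 SD (n = 3 each). LDHA, LDHB, SLC16A1, PDK1, PDK3 and MPC1 were above control in all 3 MYC libraries, SLC16A3 and PDK2 were below, PKM overlapped, and PDK4 was at or near 0.

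PKM encodes the pyruvate kinase that makes pyruvate and ATP in the last step of glycolysis; alternative exons give its M1 and M2 forms, which a value per gene does not separate. PKM (ENSG00000067225.13, chromosome 15) was at 2612, 2500 and 2189 CPM in the MYC libraries and at 2304, 2623 and 2437 CPM in the control libraries. The groups overlapped, with a log2 fold change of -0.01 and an SE of 0.09 (adjusted p = 0.913, edgeR; each ± after a fold change is its SE). Per length the picture differed: PKM was at 1750, 1806 and 1988 TPM in MYC libraries, against 1491, 1583 and 1548 TPM in control libraries, and the groups did not overlap. The effective length, RSEM's mean over a gene's transcripts of the length in which a fragment can start, weighted by their abundance, was 1804, 1722 and 1464 bases for PKM in MYC libraries and 2068, 2089 and 2060 bases in control libraries. All 3 MYC values were thus shorter, with a log2 change of -0.32 against a median of -0.02 over all genes. Among the 9 tested genes, effective lengths were shorter without overlap for 5 (PKM, LDHB, SLC16A3, PDK2 and MPC1) and longer for 1 (SLC16A1), as for 17.6% and 8.48% of all genes tested.

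PKM was called higher once length or GC content was taken into account. With an offset for effective length its log2 fold change was 0.29 ± 0.06 (adjusted p = 0.00492, edgeR), and with the GC offset it was 0.26 ± 0.05 (adjusted p = 0.00149, edgeR). Its transcripts average 55.7% GC. With the length offset 7 of the 9 genes were called higher and 2 lower, against 26.1% and 29.0% of all genes (55.1% in all). Mean fragment lengths were 230, 218 and 224 bases in MYC libraries and 211, 194 and 219 bases in control libraries; their part in the effective lengths was not tested.

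**Figure D2:**
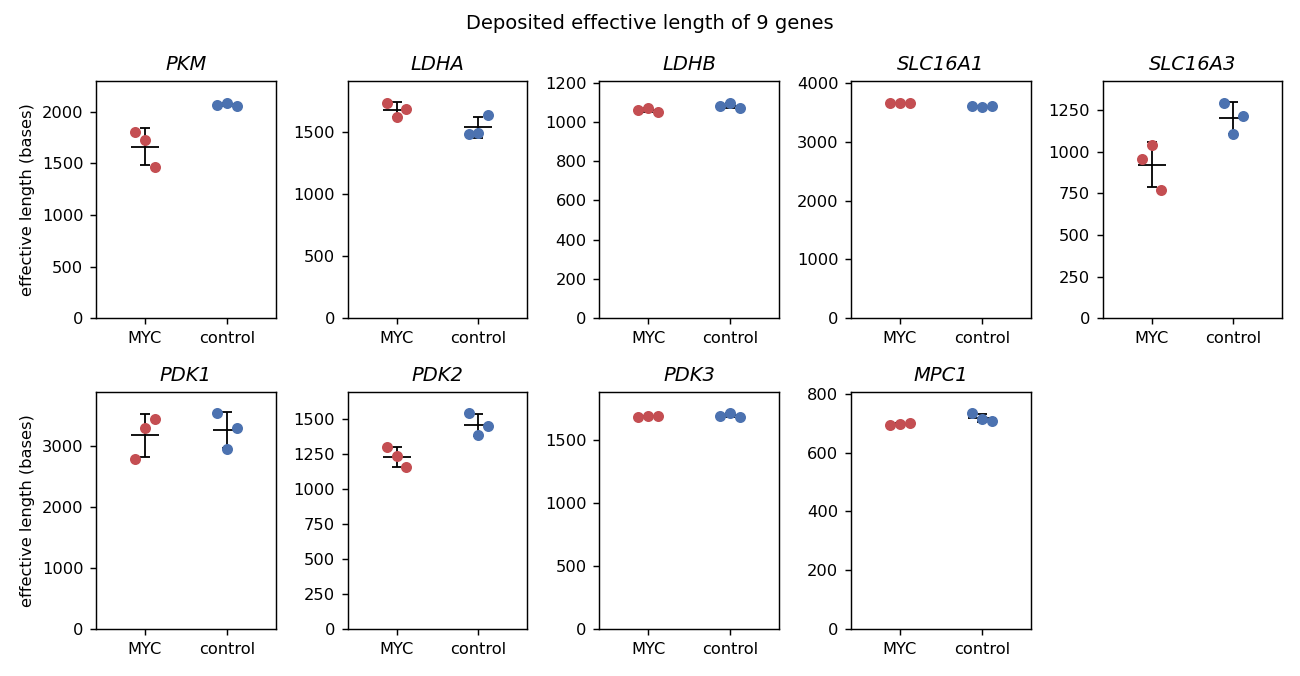
Effective length in bases of the 9 tested genes in every library, on axes that start at 0, with MYC libraries at left and control libraries at right; lines are group means and bars 1 SD (n = 3 each). PKM, SLC16A3 and PDK2 had the largest shortening in MYC libraries, with log2 changes of -0.32, -0.39 and -0.25; LDHA, PDK1 and PDK3 overlapped.

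Among the factors known to affect the choice between the M1 and M2 exons, 6 of 6 were called on counts, 4 higher (HNRNPA1, HNRNPA2B1, SRSF3 and the kinase NEK2) and 2 lower (PTBP1 and RBM4). Of all genes tested, 60.8% were called on counts, 28.8% higher and 32.1% lower. HNRNPA1, a repressor of the M1 exon, was at 1849, 1959 and 1857 CPM in MYC libraries, against 1261, 1237 and 1217 CPM in control libraries, 1.52-fold higher (1.32-fold with the GC offset). HNRNPA2B1 was 1.43-fold and NEK2 1.35-fold higher (1.21-fold and 1.17-fold with the GC offset), and RBM4 was 1.25-fold lower (1.27-fold with the GC offset). SRSF3 was 1.28-fold higher, but its log2 fold change was -0.03 and not called with the length offset. PTBP1, which also represses the M1 exon, had a log2 fold change of -0.42 in counts but 0.30 with the GC offset and 0.25 with the length offset, all called by edgeR, so that its direction depends on the scaling. Without control replicate 3, 1 of the 6 was called lower, where 4926 of 17589 genes tested were lower. The count was also 1 with limma on either log2 TPM scale (5254 and 5258 of 17679 genes lower) and with the length offset (5125 of 17679). It was 1 as well with the GC offset (4998 of 17202) and with the GC offset and replicate block (4910 of 17202).

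LDHA and LDHB, the main chains of lactate dehydrogenase, both rose, and the share of LDHA in their sum overlapped between the groups. LDHA favours the making of lactate from pyruvate, and LDHB-rich enzyme is common in tissues that use lactate. The sequence around their start sites is shown because CACGTG, the E-box to which MYC binds with its partner MAX, occurs in the LDHA window and not in that of LDHB. The windows run from 250 bases before to 50 bases after the start site (RefSeq, GRCh38.p14), at chr11:18394313-18394612 on the plus strand for LDHA and at chr12:21657793-21658092 on the minus strand for LDHB, with CACGTG in capitals.
LDHA: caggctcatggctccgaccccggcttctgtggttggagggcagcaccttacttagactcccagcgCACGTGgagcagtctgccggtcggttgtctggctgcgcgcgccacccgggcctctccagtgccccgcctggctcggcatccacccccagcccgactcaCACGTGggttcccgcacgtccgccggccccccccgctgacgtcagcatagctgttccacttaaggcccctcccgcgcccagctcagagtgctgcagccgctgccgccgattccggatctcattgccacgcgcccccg
LDHB: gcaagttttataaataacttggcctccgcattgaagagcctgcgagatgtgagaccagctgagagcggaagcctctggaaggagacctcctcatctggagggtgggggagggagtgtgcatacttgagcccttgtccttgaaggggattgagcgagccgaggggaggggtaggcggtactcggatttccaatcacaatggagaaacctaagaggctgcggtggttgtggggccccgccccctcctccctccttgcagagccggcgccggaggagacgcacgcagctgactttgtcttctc
LDHA holds 2 copies of CACGTG, which reads the same on both strands. It was the only 1 of the 9 genes with a promoter entry to hold the motif (SLC16A1 had none), and 7.435% of all 27305 promoters in the table hold it. ACGTG and GCGTG, the core letters of hypoxia response elements, were searched on both strands; ACGTG, which is also part of CACGTG, was in 2 of the 9 (LDHA and PDK3) and 21.608% of all promoters, and GCGTG in 5 of the 9 and 36.327%. Only 1 window per gene was searched, so other start sites of these genes were not covered. A match is a description of letters, not a bound site.

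LDHA (ENSG00000134333.9, chromosome 11) was at 1425, 1404 and 1449 CPM in MYC libraries, against 716, 683 and 676 CPM in control libraries. Every MYC library was far above every control library, and the 3 MYC values lay close together. LDHA was 2.06-fold higher (log2 fold change 1.04 ± 0.06, adjusted p = 3.80e-06, edgeR), and 1.79-fold higher with the GC offset. LDHB (ENSG00000111716.8, chromosome 12) was at 446, 457 and 460 CPM in MYC libraries, against 255, 237 and 236 CPM in control libraries. Again the groups did not overlap, and LDHB was 1.87-fold higher (log2 fold change 0.90 ± 0.06, adjusted p = 6.60e-06, edgeR), or 1.62-fold with the GC offset. Reads given to the processed pseudogene LDHAP4 came to 0.528% of those of LDHA.

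Per length, LDHA and LDHB summed to 1503, 1614 and 1730 TPM in MYC libraries and to 963, 850 and 830 TPM in control libraries. LDHA made up 66.1, 67.1 and 66.3% of that sum in MYC libraries and 67.2, 67.9 and 65.2% in control libraries. The groups overlapped, with means of 66.5 ± 0.49% and 66.8 ± 1.40% (SD, n = 3 each), a difference of -0.26 percentage points (exact two-sided permutation test, p = 0.9). With 3 libraries a group this exact permutation test has 20 splits and cannot go below p = 0.1. The sign of this small difference depends on the unit, as CPM gave 1.84 points more LDHA in MYC libraries without overlap (exact permutation p = 0.1), and on control replicate 2, without which it was 0.32 points.

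Genes related to LDHA and LDHB had low counts. LDHC, the testis form, was at 6.17, 6.44 and 6.73 CPM in MYC libraries and 4.16, 3.76 and 4.10 CPM in control libraries, 1.61-fold higher (adjusted p = 0.000227, edgeR; 1.35-fold with the GC offset). LDHD, a mitochondrial enzyme for D-lactate, was at 0.34, 0.31 and 0.22 CPM in MYC libraries and 1.06, 0.83 and 0.88 CPM in control libraries. It was called lower (3.13-fold), but with the GC offset its log2 fold change was -0.23 and it was not called. LDHAL6B was at 0.45, 0.34 and 0.29 CPM in MYC libraries, against 0.036, 0.013 and 0.023 CPM in control libraries, and was called higher from levels near the counting limit.

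On counts, the carriers for lactate moved in opposite directions. SLC16A1 (MCT1), a carrier of lactate and pyruvate with high affinity found in most tissues, rose, and SLC16A3 (MCT4), which exports lactate from strongly glycolytic cells, fell. SLC16A1 (ENSG00000155380.7, chromosome 1) was at 161, 169 and 174 CPM in MYC libraries, against 109, 97.6 and 102 CPM in control libraries. The groups did not overlap, and SLC16A1 was 1.63-fold higher (log2 fold change 0.71 ± 0.06, adjusted p = 3.15e-05, edgeR), or 1.42-fold with the GC offset. SLC16A3 (ENSG00000141526.10, chromosome 17) was at 2.84, 2.19 and 1.10 CPM in MYC libraries, against 7.92, 7.64 and 7.23 CPM in control libraries. All MYC values were lower and they spread widely, while the control values lay close together. SLC16A3 was 3.82-fold lower (log2 fold change -1.94 ± 0.25, adjusted p = 0.000224, edgeR).

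The SLC16A3 decrease was smaller with the GC offset. Its transcripts average 66.1% GC, the highest of the 10 genes, and with the GC offset the log2 fold change was -0.38 ± 0.15, a 1.30-fold decrease that was not called (adjusted p = 0.0506, edgeR). SLC16A3 exons also overlap CSNK1D on the opposite strand, and the libraries did not mark strand. CSNK1D counts came to 2143% of those of SLC16A3, so reads of the pair may not have been told apart. SLC16A3 effective lengths were 957, 1039 and 774 bases in MYC libraries and 1296, 1105 and 1218 bases in control libraries, without overlap.

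Per length SLC16A1 and SLC16A3 summed to 60.6 ± 4.16 TPM in MYC libraries and 45.5 ± 2.87 TPM in control libraries. SLC16A1 made up 93.7, 95.6 and 97.1% of the sum in MYC libraries, against 83.2, 79.7 and 82.7% in control libraries. The groups did not overlap, and the means differed by 13.6 percentage points (exact permutation p = 0.1, the smallest possible). From CPM the means were 98.8 ± 0.55% and 93.1 ± 0.35%, a difference of 5.66 points. The share carries no GC offset, and the call of SLC16A3 behind it was lost with it. Both carriers need a partner glycoprotein to reach the membrane, and these partners also moved apart. BSG (basigin), the usual partner of both, was at 169, 142 and 110 CPM in MYC libraries and 421, 440 and 410 CPM in control libraries, a 3.03-fold decrease (adjusted p = 2.96e-05, edgeR). With the GC offset BSG was 1.38-fold lower and still called. EMB (embigin), an alternative partner of SLC16A1, was at 64.8, 68.3 and 73.9 CPM in MYC libraries and 55.4, 46.1 and 50.3 CPM in control libraries, 1.37-fold higher (adjusted p = 0.00155, edgeR; 1.14-fold with the GC offset). Of other monocarboxylate carriers, SLC16A7 was 1.30-fold higher (1.12-fold and not called with the GC offset) and SLC16A8, at 0.23 to 0.25 CPM in MYC and 0.94 to 1.48 CPM in control libraries, 5.23-fold lower (1.74-fold with the GC offset). The sodium-coupled carrier SLC5A8 was called higher at under 1 CPM, though not with the GC offset, and SLC5A12 was 1.59-fold lower (1.85-fold with the GC offset).

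The PDK genes did not move together. On counts PDK1 and PDK3 rose, PDK2 fell and PDK4 was barely detected. PDK1, known as a target of the hypoxia factor HIF1A, was at 71.3, 75.6 and 80.3 CPM in MYC libraries, against 64.3, 58.0 and 62.2 CPM in control libraries (ENSG00000152256.9, chromosome 2). The groups did not overlap but lay close, and PDK1 was 1.23-fold higher (log2 fold change 0.30 ± 0.07, adjusted p = 0.00430, edgeR). With the GC offset its log2 fold change was 0.10 and was not called (adjusted p = 0.0513, edgeR). PDK2, a widely expressed isoform, was at 66.7, 54.7 and 44.4 CPM in MYC libraries, against 80.6, 90.5 and 86.2 CPM in control libraries (ENSG00000005882.7, chromosome 17). All MYC libraries were lower, by 1.56-fold on average (log2 fold change -0.64 ± 0.13, adjusted p = 0.00272, edgeR). PDK2 transcripts average 58.0% GC, and with the GC offset the log2 fold change was -0.15 and was not called (adjusted p = 0.0645, edgeR).

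PDK3, the isoform least held back by pyruvate, kept its call in both fits. It was at 5.07, 5.62 and 5.11 CPM in MYC libraries, against 3.17, 3.09 and 3.33 CPM in control libraries (ENSG00000067992.8, chromosome X). The groups did not overlap, and PDK3 was 1.65-fold higher (log2 fold change 0.73 ± 0.09, adjusted p = 0.000229, edgeR), or 1.41-fold with the GC offset (adjusted p = 0.00122, edgeR). PDK4 (ENSG00000004799.7, chromosome 7), the isoform induced by fasting and fatty acids in muscle and liver, had 0, 9 and 2 expected counts in MYC libraries and 0, 0 and 0 in control libraries. The 9 counts, in the deepest MYC library, were 0.058 CPM; a count of 0 allows up to 3 counts, which is 0.11 CPM in the first MYC library and 0.054, 0.039 and 0.023 CPM in the control libraries. PDK4 did not pass the expression filter, and no fold is given.

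Per length the 4 kinases summed to 96.9, 88.0 and 86.1 TPM in MYC libraries and 97.0, 109.6 and 105.3 TPM in control libraries. The summed level was lower in every MYC library than in every control library, narrowly so for MYC replicate 1 (exact permutation p = 0.1). Per length PDK2 was the largest share in both groups, at 62.0 ± 2.52% in MYC libraries and 73.8 ± 1.49% in control libraries. PDK1 made up 33.6 ± 2.16% against 23.8 ± 1.25%, and PDK3 4.38 ± 0.54% against 2.38 ± 0.26%. None of these shares overlapped between the groups, and each had an exact permutation p of 0.1. From CPM, which does not correct for length, PDK1 made up 55.8 ± 6.01% in MYC libraries and 40.9 ± 2.58% in control libraries, and PDK2 40.3 ± 6.22% and 57.0 ± 2.64%, so in the MYC libraries the order of PDK1 and PDK2 depends on the unit. The shares carry no GC offset, and the calls of PDK1 and PDK2 behind them were lost with it.

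**Figure D3:**
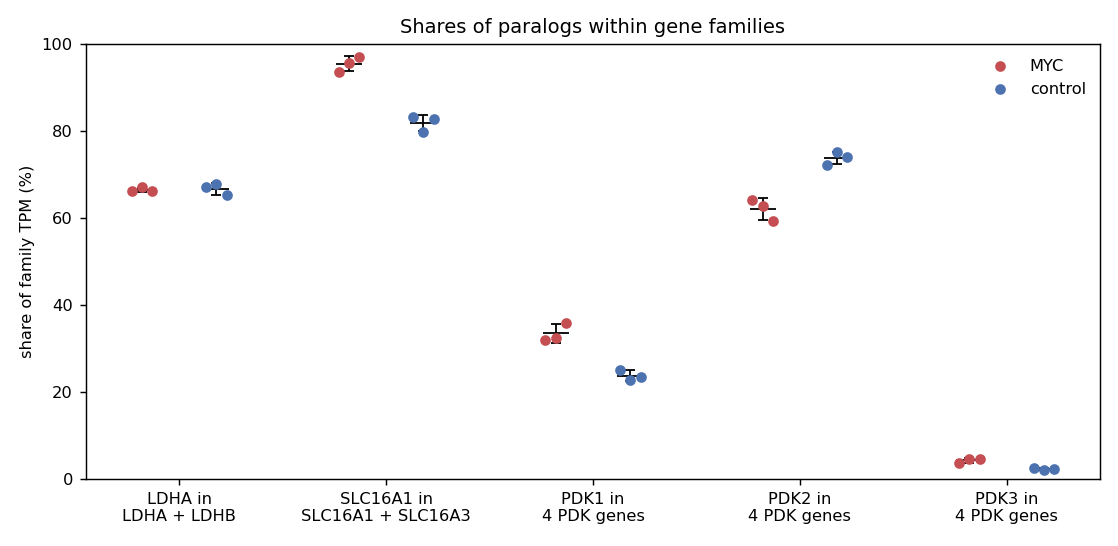
Share in percent of LDHA in LDHA + LDHB, of SLC16A1 in SLC16A1 + SLC16A3, and of PDK1, PDK2 and PDK3 in the 4 PDK genes, from deposited TPM, by library; MYC libraries are left of control libraries, lines are means and bars 1 SD (n = 3 each). The LDHA share overlapped between groups, while the other 4 shares did not.

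MPC1, which with MPC2 forms the mitochondrial pyruvate carrier, rose slightly. It was at 17.9, 19.2 and 17.4 CPM in MYC libraries, against 14.1, 14.6 and 13.6 CPM in control libraries (ENSG00000060762.14, chromosome 6). The groups did not overlap, and MPC1 was 1.29-fold higher (log2 fold change 0.37 ± 0.07, adjusted p = 0.00217, edgeR). With the GC offset the log2 fold change was 0.16 and was not called (adjusted p = 0.0837, edgeR). MPC2 was at 39.6, 42.8 and 41.2 CPM in MYC libraries and 43.1, 34.4 and 34.4 CPM in control libraries, which overlapped and were not called (adjusted p = 0.212, edgeR).

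**Figure D4:**
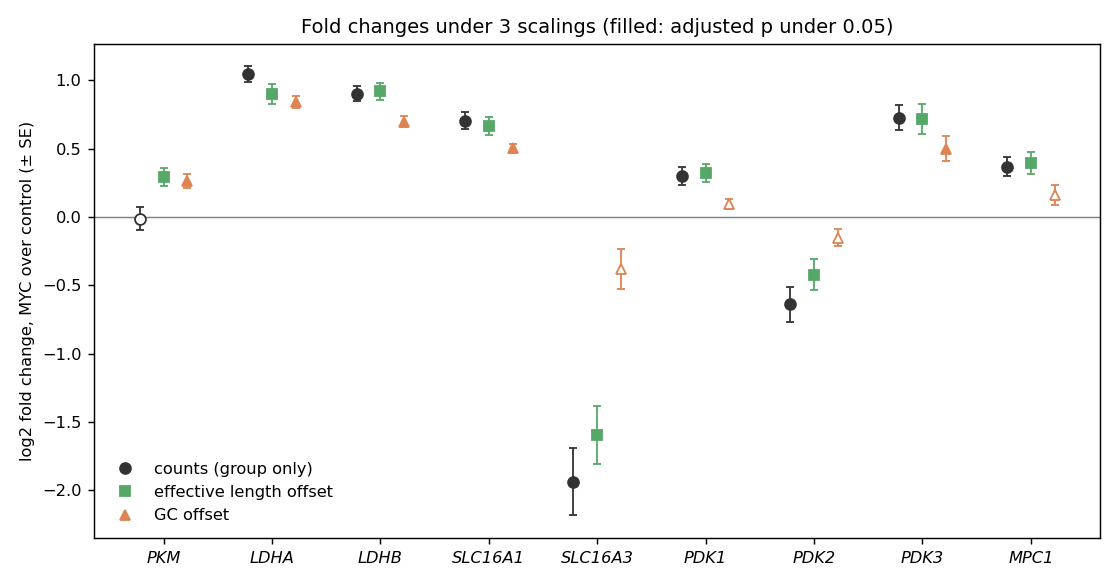
Log2 fold change of MYC over control with its SE (bars) for the 9 tested genes in 3 edgeR fits, on counts, with an offset for effective length and with the GC offset; filled points have an adjusted p under 0.05. LDHA, LDHB, SLC16A1 and PDK3 were called higher in all 3, SLC16A3 moved from -1.94 to -0.38 with the GC offset, and PKM was called only with an offset.

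The genes of the pyruvate dehydrogenase complex and its phosphatases were called mostly upward and by small amounts. Of 9 such genes 8 were tested, 7 were called higher and 0 lower by edgeR (7 and 0 at an unadjusted p under 0.05, and 7 and 0 by DESeq2); with the GC offset 5 were higher and 0 lower. Over all genes tested, 28.8% were called higher on counts and 30.0% with the GC offset, and 5163 of 17679 by DESeq2. No share of all genes at an unadjusted p is given here. The 7 fell to 3 with limma on either log2 TPM scale and to 4 with no expression filter. With limma 3759 and 3778 of all 17679 genes tested were higher, and with no filter 5007 of 32620. The 7 also fell to 4 without control replicate 1, 2 or 3 or MYC replicate 2. All genes called higher were then 4917 of 18584, 4296 of 17606, 4184 of 17589 and 4238 of 17596. PDHA1, the chain that the PDK kinases phosphorylate, was 1.26-fold higher, and PDHB, its partner in the decarboxylase, 1.46-fold higher (1.18-fold and 1.27-fold with the GC offset). PDHB was at 71.4, 68.3 and 66.3 CPM in MYC libraries and 49.7, 45.7 and 46.0 CPM in control libraries. DLAT, which forms acetyl-CoA, and DLD, which reoxidises the lipoyl groups of the complex, were 1.37-fold and 1.35-fold higher (1.18-fold and 1.14-fold with the GC offset). PDP1, a phosphatase that reverses the action of the kinases, was 1.16-fold higher and not called with the GC offset. PDP2 was not called in either fit. PDHX and PDPR were called narrowly on counts (adjusted p = 0.0467 and 0.0494, edgeR), and were called higher under 4 and 5 of the 16 alternatives. With the GC offset only PDPR of these was called. At a mean CPM of at least 5, 5 of the list were higher and 1 lower, against 3599 and 3694 of 10563 genes.

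The list of other pyruvate and lactate genes, which includes the LDH relatives, carriers and carrier partners above, went both ways. Of 21 genes, 17 were tested, 7 were called higher and 8 lower, and 5 and 7 with the GC offset. Over all genes tested, 28.8% were called higher and 32.1% lower on counts, and 30.0% and 29.1% with the GC offset. The malic enzymes, which make pyruvate from malate, rose: ME2 was at 53.1, 56.2 and 59.99 CPM in MYC libraries, against 31.2, 27.2 and 29.2 CPM in control libraries, 1.93-fold higher (1.62-fold with the GC offset). ME1 was 1.52-fold higher (1.28-fold with the GC offset). Several enzymes of other routes fell. PC, pyruvate carboxylase, which makes oxaloacetate, was 2.44-fold lower (1.54-fold with the GC offset). GPT2, the mitochondrial alanine aminotransferase, was at 141, 133 and 121 CPM in MYC libraries, against 272, 278 and 275 CPM in control libraries, 2.09-fold lower (1.74-fold with the GC offset). PCK2, the mitochondrial enzyme that makes phosphoenolpyruvate, was at 139, 118 and 94.1 CPM in MYC libraries, against 292, 306 and 299 CPM in control libraries, 2.57-fold lower (1.55-fold with the GC offset). PC, PCK2, GPT2, ME1 and ME2 were called by edgeR in both fits.

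**Figure D5:**
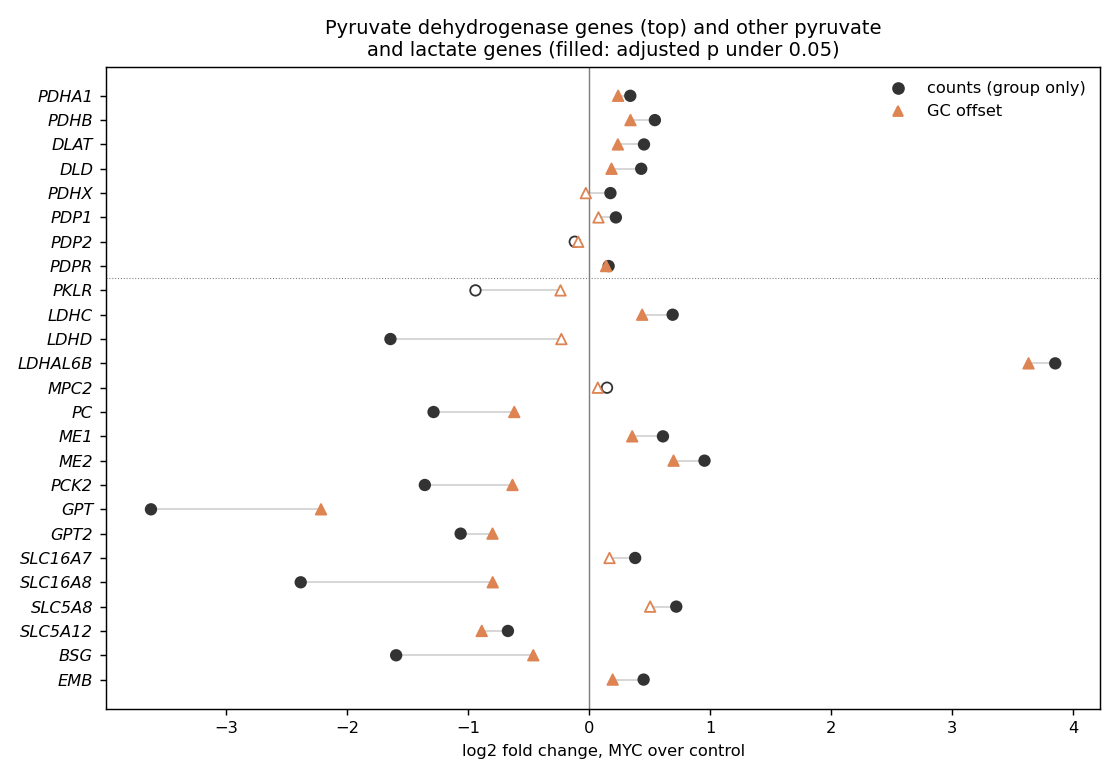
Log2 fold change of MYC over control for the tested pyruvate dehydrogenase genes (above the dotted line) and other pyruvate and lactate genes (below it), on counts and with the GC offset; filled points have an adjusted p under 0.05 in edgeR. ME1, ME2, LDHC and EMB were higher and PC, PCK2, GPT2 and BSG lower in both, while LDHD was called on counts only.

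Upstream of PKM, 10 of 21 glycolysis and glucose uptake genes were called higher and 6 lower, and 16 and 3 with the GC offset, against 28.8% and 32.1% of all genes on counts and 30.0% and 29.1% with the GC offset. HK2, a hexokinase, was at 52.5, 50.5 and 47.9 CPM in MYC libraries, against 8.61, 9.73 and 9.41 CPM in control libraries, 5.43-fold higher (adjusted p = 2.61e-07, edgeR; 5.45-fold with the GC offset). SLC2A3, a glucose transporter, was at 3.33, 4.36 and 3.70 CPM in MYC libraries, against 0.036, 0.026 and 0.030 CPM in control libraries, and was called higher in both fits. PFKM, the muscle-type phosphofructokinase, was 1.42-fold higher (1.42-fold with the GC offset). Of the 6 called lower on counts, 3 were also lower with the GC offset. SLC2A1 and ALDOA, named after their values were seen, turned from log2 fold changes of -0.41 and -0.42 on counts to 0.18 and 0.41 with the GC offset, all called, so their direction depends on the scaling.

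The response to low oxygen, driven by HIF1A, is known to raise LDHA, PDK1 and SLC16A3. Of 25 other genes of that response, 22 were tested, 7 were higher and 8 lower (9 and 11 with the GC offset). Of all genes tested, 28.8% were called higher and 32.1% lower (30.0% and 29.1% with the GC offset). DDIT4, an inhibitor of mTOR signalling, was 2.53-fold lower (1.14-fold with the GC offset). NDRG1 was 1.71-fold lower (1.32-fold with the GC offset), though its log2 fold change was -0.11 and not called with the length offset. PFKFB3, which makes the activator of phosphofructokinase, was 2.10-fold higher (3.28-fold with the GC offset). EGLN2, an oxygen sensor, was 2.25-fold lower on counts and not called with the GC offset. Of 8 genes known to control PDK4, 7 were tested, 1 was higher and 4 lower (2 and 5 with the GC offset). Calls in either direction made up 60.8% of all genes tested on counts and 59.1% with the GC offset. PPARGC1A, a coactivator of mitochondrial genes, was 1.59-fold higher (1.38-fold with the GC offset). The transcription factor genes FOXO3 and PPARD were 1.31-fold and 1.99-fold lower (1.39-fold and 1.36-fold with the GC offset). ESRRA had a log2 fold change of -0.90 on counts and 0.56 with the GC offset, both called, so its direction depends on the scaling.

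The genes with the pattern most like LDHA, by root mean square distance of centred log2 CPM over the 6 libraries among genes with a mean CPM of at least 5, were TRAF5 (0.0239), VDAC1 (0.0299) and STXBP6 (0.0394). VDAC1, a channel of the mitochondrial outer membrane, was at 389, 401 and 396 CPM in MYC libraries, against 205, 195 and 189 CPM in control libraries. For SLC16A3 they were GPAA1 (0.075), S1PR2 (0.091) and GADD45GIP1 (0.091). GPAA1 was at 25.3, 19.2 and 11.4 CPM in MYC libraries, against 73.2, 71.9 and 64.5 CPM in control libraries. A spread among the MYC libraries like that of SLC16A3 follows from how GPAA1 was chosen.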

How the data were processed

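Poly-A RNA of 6 U266 libraries, 3 MYC and 3 control, was sequenced from a kit that does not mark strand, per the labels' protocols. Reads were handled with cutadapt and TopHat2 on GRCh37, per the submitters' processing notes; for tool versions and gene models, the sources used here give none. The authors deposited RSEM tables, per the file headers, with 3 values per gene: expected counts, estimates that divide ambiguous reads among genes and can be fractional; TPM, scaled by the authors for length and depth; and the effective length in bases, another deposited value.

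Rounded expected counts went into the quasi-likelihood F test of edgeR 4.0.16 under R 4.3.3 (filterByExpr defaults, TMM scaling, group as the single term, Benjamini-Hochberg adjustment over 17679 genes, called at an adjusted p under 0.05). The SE was derived from the F statistic. Shares were tested by exact permutation of libraries. Symbols were matched by gene ID for 39538 of 57820 rows, which hold 98.0% of the counts; no row lacked an ID. The GC offset fits a loess curve (span 0.4) of log2 CPM against GC content (GENCODE 29 transcripts) in each library and subtracts it before TMM. The edgeR fit on counts and the GC offset fit were tested on simulated data, and the other fits were not. Other alternatives used RLE factors, DESeq2 1.42.0, limma 3.58.1 on log2(TPM + 1) and log2(TPM + 0.1), no filter, a mean CPM of at least 5, the length offset, a replicate block and each library left out.

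The members and lists were chosen with earlier results of these data known. All 10 genes, MYC, and the genes of the pyruvate dehydrogenase, other pyruvate and PKM splicing lists could be named; from the other lists up to 4 called genes by smallest adjusted p; and the 3 genes most like LDHA and SLC16A3. A further gene that this rule names is not reported here. Without molecular identifiers, reads of PCR copies are counted again, so a limit from a count of 0 covers counting error only. The shallowest library, in the MYC group, limits the precision of low genes. No 2 libraries of a group agreed within sampling noise.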

Additional observations from a re-analysis of the deposited data

How the results depend on the processing

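LDHA, LDHB and SLC16A1 stayed called higher under all 16 alternatives, and PDK3 under the 15 that tested it. PDK1 and MPC1 lost their call with the GC offset (log2 fold changes 0.10 and 0.16) and with the GC offset and replicate block (0.10 and 0.15), and PDK2 likewise (-0.15 and -0.15). SLC16A3 lost its call with the GC offset (-0.38). Members called lower were 0 with the GC offset and 1 with the GC offset and replicate block. Of 17202 genes tested, 4998 and 4910 were called lower in these fits. At a mean CPM of at least 5, where SLC16A3 and PDK3 drop out, 1 member was called lower. There 10563 genes were tested and 3694 called lower. With no expression filter PDK4 was called higher (adjusted p = 0.00782, edgeR), on counts in MYC replicates 2 and 3 only.

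PKM was not called with RLE factors (0.0065), with DESeq2 (0.0065) or with a library left out (-0.080 to 0.061), values around 0 and within its SE. It was called higher with limma on log2(TPM + 1) (0.26) and log2(TPM + 0.1) (0.26), with the effective length offset (0.29), with the GC offset (0.26) and with the GC offset and replicate block (0.26). The LDHA share differed by 1.84 points from CPM, and by -1.04 to 0.32 points with a library left out. The cause of these shifts was not tested. Other shares kept the sign of their difference.

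The replicate numbers did not pair the libraries: deviations of same-numbered libraries correlated at -0.047, 0.078 and 0.11. With the replicate block alone 6 members were higher and 2 lower, all genes gave 4649 higher and 5380 lower, and 4 pyruvate dehydrogenase genes were higher. No member changed its call under the block alone.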
